A study of Mus musculus with 8 samples.

Results

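The insulin-like growth factor (IGF) ligands and their binding proteins were followed in mouse mammary tumours with and without FGFR1. The set was 10 genes, the ligands Igf1 and Igf2, the binding proteins Igfbp1 to Igfbp7, and Igfals. It was chosen by gene name, with earlier results of these data known. Their probes were found through the RefSeq accession that the array files give for each probe. They came to 14 of 55681 probes and 10 of the 21364 genes named on the array. The tumours labelled FGFR1 KO came from K19-tva mice that also carried fgfr1 loxP/loxP alleles (4 arrays), and those labelled WT came from K19-tva mice used as controls (4 arrays). K19-tva is a transgene that puts the receptor for an avian retrovirus under a keratin promoter, and both groups carry it on the FVB strain, the loxP allele having been crossed in from ICR. The labels state neither the age of the mice, nor what recombined the loxP alleles, nor that each sample came from a separate animal. The p-values therefore describe only how these samples spread.

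IGF1 and IGF2 are secreted growth factors that act through the receptor tyrosine kinase IGF1R. In extracellular fluid most IGF is held by binding proteins, which lengthen its life, keep it from the receptor, or release it when proteases cut them. In the mammary gland IGF1 made by stromal cells acts on the neighbouring epithelium, and the binding proteins come from both compartments. The question put to the arrays was whether these genes differ between the genotypes and whether they move with the genes of the stromal matrix.

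Promoter sequence is shown for Igf1 and Igfbp6, the members with a probe at which every FGFR1 KO array lay below every WT array. Each run is the 250 bases before the annotated start, 5′ to 3′ on the gene's strand, from RefSeq on GRCm38.p6, at chr10:87860861-87861110 (plus strand) for Igf1 and chr15:102143936-102144185 (plus strand) for Igfbp6. Capitals mark motif matches on either strand. The motifs are TGANTCA, an AP-1 pattern in which N is any base, and CCAAT, a box bound by NF-Y. The others are TATAAA, the core element bound by TBP, and GGGCGG, a GC box. The marked matches do not overlap one another.
Igf1: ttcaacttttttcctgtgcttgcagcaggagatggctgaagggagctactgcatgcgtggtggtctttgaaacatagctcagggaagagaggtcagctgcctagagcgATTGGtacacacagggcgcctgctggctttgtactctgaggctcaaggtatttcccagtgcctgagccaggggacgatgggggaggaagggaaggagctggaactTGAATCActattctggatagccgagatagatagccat
Igfbp6: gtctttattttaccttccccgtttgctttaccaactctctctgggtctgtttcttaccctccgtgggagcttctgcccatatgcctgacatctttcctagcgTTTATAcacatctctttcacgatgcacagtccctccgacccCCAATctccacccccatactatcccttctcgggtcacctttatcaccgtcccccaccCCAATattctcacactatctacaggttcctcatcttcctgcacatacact
The Igf1 window held 1 match to the AP-1 pattern, which reads TGAATCA, and 1 CCAAT box. The Igfbp6 window held 2 CCAAT boxes and 1 match to the TBP element TATAAA. That match is on the opposite strand, at -148 to -143 from the start, and whether it acts as a core element was not tested. Of 32851 promoter windows of the same length, 6.75% held the AP-1 pattern, 33.8% the CCAAT box, 12.4% the TBP element and 32.7% the GC box. Of the motifs searched, the windows share the CCAAT box.

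Each array compared tumour RNA, read in red, with a common human reference RNA, read in green, and values are log2 of red over green unless stated. Feature Extraction called red well above background for 68.9% to 83.9% of spots per FGFR1 KO array, against 43.9% to 69.2% per WT array, and precision is limited by how many arrays there are. The bar for that call was lower on FGFR1 KO arrays. Among the dimmest 1% of spots called above background, the median net red intensity was 23 to 36 units on FGFR1 KO arrays and 51.5 to 220 units on WT arrays. A rectangle at rows 97 to 336 and columns 83 to 164 was bright on the WT arrays. Inside it 0% of negative control spots exceeded 50 net red units on each FGFR1 KO array, against 17.7% to 46.9% on the WT arrays. Of the 18 spots of the IGF set, 5 lay in this rectangle, namely those of Igf2, Igfbp6 and Igfbp7 and a single spot each of the Igf1 probes A_55_P2031636 and A_55_P2085974. The FGFR1 KO arrays filled one row of the slide and the WT arrays the other, and the row cannot be told apart from the genotype. WT 2 was unlike the rest, correlating with them at 0.38 on average, where the other arrays had averages of 0.60 to 0.71. All 12 luminal epithelial markers were tested, and 5 were above background on all 8 arrays. The others were above background on every FGFR1 KO array but not on every WT array. On WT 2 their list median was -0.20, the lowest of the 8 arrays, while the skeletal muscle median there was 8.57. WT 2 was the lowest array for every luminal marker but Esr1, with Krt8 at -3.94 against 1.41 to 3.27 elsewhere. These markers therefore do not show that WT 2 was mainly epithelial. The 3 tested Fgfr1 probes differed by 0.00 (95% interval -0.28 to 0.28), -0.10 (-1.04 to 0.83) and -0.49 (-1.99 to 1.00), and where they lie relative to the loxP sites is not given, so they check nothing.

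Of the 14 probes of the set, 10 were measured well enough to be tested, and these covered 8 of the 10 genes. Igf2 and Igfbp1 were too dim. With limma and Benjamini-Hochberg adjustment over 39853 probes, 0 of the 10 member probes passed 0.05, against 0.01% of all probes tested (4 probes). Before adjustment, 3 of 10 had p under 0.05, 2 lower and 1 higher in FGFR1 KO, against 8.48% of all probes (4.86% lower and 3.63% higher). Every FGFR1 KO array lay below every WT array at 2 of 10 member probes, against 2.71% of all probes, and above at 0 of 10, against 2.39%. Over the 8 genes, each at its brightest probe, 3 differences were below 0 and 5 above, with a median of 0.22, while over 16802 genes the median was 0.00 and 50.4% were below 0. The IGF set as a group therefore showed no single direction.

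**Figure D1:**
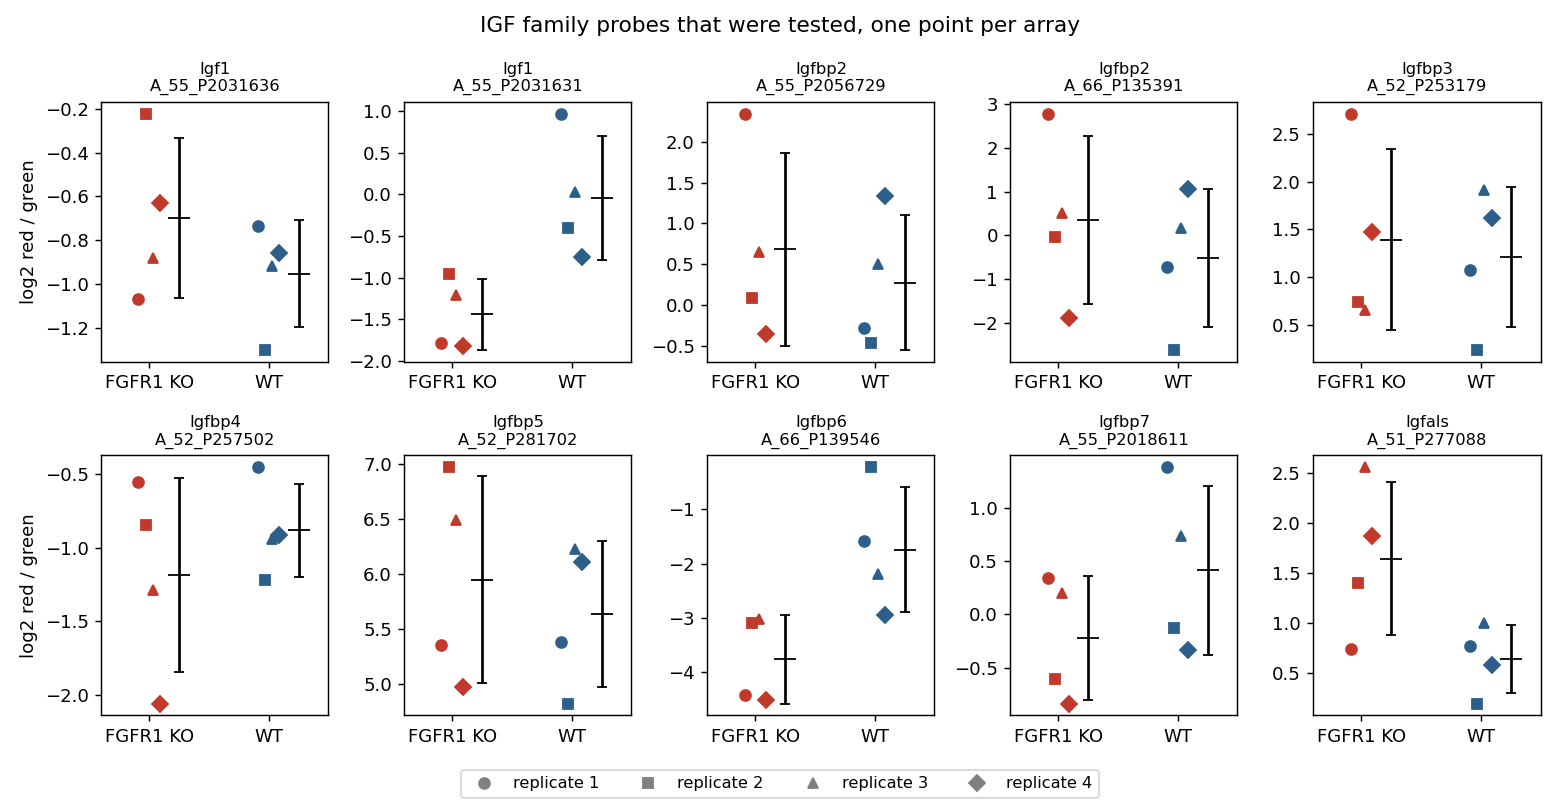
Log2 of red over green at the 10 tested probes of the IGF set, with a panel for each probe, a point for each array (symbols give the replicate), and bars for the mean and SD of each genotype. The 4 FGFR1 KO arrays lie below the 4 WT arrays at Igf1 A_55_P2031631 and at Igfbp6, and 3 of 4 lie above all WT arrays at Igfals; at the other probes the genotypes overlap.

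The ligand Igf1 has 4 probes, of which the brightest showed the genotypes overlapping and the other 3, 2 of them at background level, read lower on every FGFR1 KO array. At its brightest probe, A_55_P2031636, the values were -1.07, -0.22, -0.88 and -0.63 in FGFR1 KO 1 to 4, against -0.73, -1.30, -0.92 and -0.86 in WT 1 to 4. The genotypes overlapped, and the difference was 0.25 ± 0.21 (SE, n = 4 each; limma adjusted p = 0.748). At A_55_P2031631 the values were -1.78, -0.95, -1.21 and -1.81 in FGFR1 KO 1 to 4, against 0.97, -0.40, 0.03 and -0.75 in WT 1 to 4. Here the FGFR1 KO arrays all lay below the WT arrays, WT 1 being the highest. The difference was -1.40 ± 0.37 (SE, 95% interval -2.24 to -0.56), a fold of 0.379, with a limma p of 0.0046 and an adjusted p of 0.392. The exact permutation p was 0.0286, the smallest that 4 against 4 arrays can give. Of that difference, -1.07 came from red and 0.33 more green in FGFR1 KO made up the rest.

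The other Igf1 probes were not well above background in red on any array. Net red at A_55_P2085984 was 6 to 37.5 units in FGFR1 KO and 31 to 157 units in WT, and at A_55_P2085974 it was 6 to 26.5 units in FGFR1 KO and 12 to 105 units in WT. Their log ratios were lower on every FGFR1 KO array than on every WT array, as at A_55_P2031631, and no fold is given at this signal. On both, WT 1 and WT 3 were the brightest arrays, as they were among WT arrays at the 2 tested Igf1 probes. All 4 probes carry the same RefSeq accession in the files, and the files do not state which part of the transcript each probe reads. At A_55_P2031631, 3 of the 4 WT arrays were called above background, and WT 4 had net red of 30.5 and 48 units at its pair of spots, inside the FGFR1 KO range of 25 to 59 units.

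**Figure D2:**
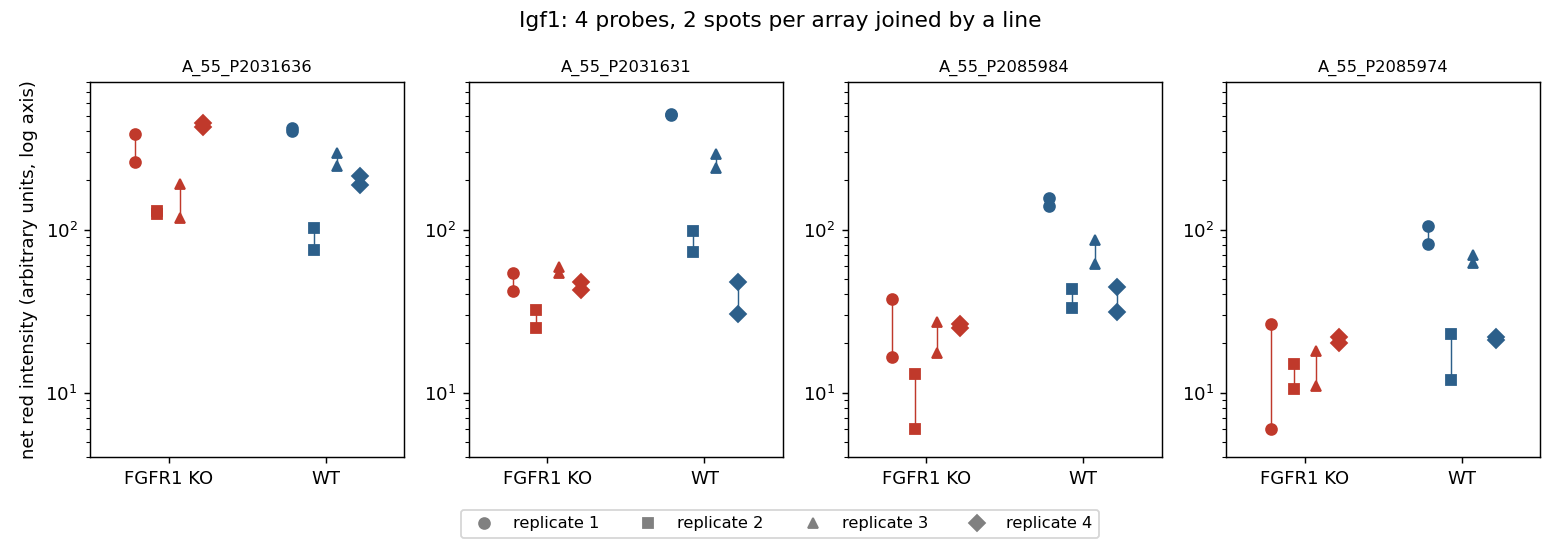
Net red intensity (spot minus local background, arbitrary units, log axis) at the 4 Igf1 probes, with the pair of spots on each array joined by a line. At A_55_P2031636 the genotypes overlap between 75 and 453 units; at A_55_P2031631 the FGFR1 KO arrays sit between 25 and 59 units and the WT arrays between 30.5 and 509 units.

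The ligand Igf2, a fetal growth factor from an imprinted locus, was not well above background in red on any of the 8 arrays. Its probe A_55_P2118173 had net red of 17.5, -3.5, 4 and 24.5 units in FGFR1 KO 1 to 4, against 126.5, 73, 50 and 8.5 units in WT 1 to 4. WT 1, WT 2 and WT 3 were the brighter ones, and the spot lies in the bright rectangle, where the median negative control read 0 to 6 units in FGFR1 KO and 6 to 41 units in WT. No fold is given for it.

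Igfbp6, which binds IGF2 in preference to IGF1, had the largest negative difference of the set. Its values were -4.41, -3.10, -3.01 and -4.51 in FGFR1 KO 1 to 4, against -1.59, -0.23, -2.20 and -2.94 in WT 1 to 4. The genotypes did not overlap, although FGFR1 KO 3 and WT 4 lay close together, and WT 2 was the highest. The difference was -2.02 ± 0.59 (SE, 95% interval -3.36 to -0.68), a fold of 0.247, with a limma p of 0.0079, an adjusted p of 0.439 and an exact permutation p of 0.0286. Green differed by -0.01, so the difference lay in red. Without WT 2 it was -1.51, and without both WT 1 and WT 2 it was -1.19.

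The Igfbp6 spot lies in the bright rectangle, so no value remains when that area is left out. Net red was 182, 128, 307 and 141.5 units in FGFR1 KO 1 to 4, against 1088.5, 1808, 746 and 360.5 units in WT 1 to 4. Negative controls in the rectangle reached a 95th percentile of 7.88 to 15.9 units in FGFR1 KO and 217.5 to 274.5 units in WT, below the Igfbp6 signal on each array. The brightest such control on WT 4 read 456.5 units, above Igfbp6 there, and the part of the brightness in the difference was not tested.

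Igfbp2 and Igfbp3 varied widely within a genotype. Igfbp2, which also binds integrins, had values of 2.35, 0.08, 0.65 and -0.36 in FGFR1 KO 1 to 4 at A_55_P2056729, against -0.29, -0.46, 0.51 and 1.34 in WT 1 to 4. Its other probe, A_66_P135391, had 2.79, -0.04, 0.52 and -1.88 in FGFR1 KO 1 to 4, against -0.72, -2.62, 0.17 and 1.08 in WT 1 to 4. On both probes FGFR1 KO 1 was highest, WT 2 was the lowest WT array and WT 4 the highest, and the genotypes overlapped. The differences were 0.41 ± 0.61 and 0.87 ± 1.03 (SE; limma adjusted p = 0.859 and 0.820). The first became -0.15 without FGFR1 KO 1, and without both WT 1 and WT 2 they were -0.24 and -0.28.

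Igfbp3, the main carrier of IGF in serum, had values of 2.71, 0.74, 0.65 and 1.47 in FGFR1 KO 1 to 4, against 1.07, 0.24, 1.91 and 1.62 in WT 1 to 4. The genotypes overlapped and FGFR1 KO 1 stood highest. The difference was 0.19 ± 0.51 (SE; limma adjusted p = 0.927), and it became -0.25 without FGFR1 KO 1 and -0.14 without WT 2. Only 1 WT array was called above background for Igfbp3, against 4 FGFR1 KO arrays. The call followed each array's bar: 40.5 net red units passed on FGFR1 KO 2, and 85 units did not on WT 1.

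Igfbp4 and Igfbp5 overlapped between the genotypes. Igfbp4, which the protease PAPPA cuts to free IGF, had values of -0.55, -0.84, -1.29 and -2.06 in FGFR1 KO 1 to 4, against -0.45, -1.22, -0.94 and -0.92 in WT 1 to 4. FGFR1 KO 4 was the lowest array, and the difference was -0.30 ± 0.32 (SE; limma adjusted p = 0.797), -0.012 without FGFR1 KO 4 and -0.51 without FGFR1 KO 1. Igfbp5, a binding protein made by mammary epithelium as the gland regresses after lactation, had 5.36, 6.97, 6.49 and 4.97 in FGFR1 KO 1 to 4, against 5.38, 4.82, 6.23 and 6.11 in WT 1 to 4. FGFR1 KO 2 was the highest array and WT 2 the lowest. The difference was 0.31 ± 0.48 (SE; limma adjusted p = 0.866), and it became -0.03 without FGFR1 KO 2.

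Igfbp7 binds IGF weakly and is laid down around blood vessels. Its values were 0.34, -0.60, 0.20 and -0.84 in FGFR1 KO 1 to 4, against 1.38, -0.12, 0.73 and -0.34 in WT 1 to 4. WT 1 and WT 3 lay above all FGFR1 KO arrays, and the other WT arrays lay among them. The difference was -0.64 ± 0.42 (SE; limma adjusted p = 0.698), -0.31 without WT 1 and -0.89 without WT 4. Its spot lies in the bright rectangle.

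Igfals and Igfbp1 are known best as liver products. Igfals, the subunit that holds IGF and IGFBP3 in a large serum complex, had values of 0.74, 1.40, 2.56 and 1.87 in FGFR1 KO 1 to 4, against 0.77, 0.20, 1.01 and 0.58 in WT 1 to 4. FGFR1 KO 2, 3 and 4 lay above all WT arrays, while FGFR1 KO 1 lay among them. The difference was 1.00 ± 0.36 (SE, 95% interval 0.18 to 1.83), a fold of 2.01, with a limma p of 0.0223, an adjusted p of 0.516 and an exact permutation p of 0.0857. It was the largest positive difference among the 8 genes at their brightest probes, with no spot in the bright rectangle, and it lay in red (0.98) and not in green (-0.03).

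Igfbp1 was above background on FGFR1 KO 1 and FGFR1 KO 4 and on 0 of 4 WT arrays. Net red was 32.5, 8, 20.5 and 78 units in FGFR1 KO 1 to 4, against 18, 16, 39 and 14 units in WT 1 to 4. The genotypes overlapped, FGFR1 KO 4 being the brightest array. It was not tested, and no fold is given. Among 12 hepatocyte markers, 7 were tested, with a median difference of -0.13 (range -2.05 to 0.14). Of the 12, 6 were above background on all 8 arrays, and 1, Alb, was above it on 0 of 8. Ttr, Fga and Ahsg were each above background on 3 FGFR1 KO arrays and 0 WT arrays.

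The stromal matrix genes gave the yardstick. This list of 30 collagens, small proteoglycans and fibroblast genes holds no IGF member. The list too was chosen with earlier results of these data known, so its shift is no independent finding. All 30 were tested and 29 lay below 0 in FGFR1 KO, against 50.4% of 16802 genes, with a median difference of -1.14. Of the 30, 0 passed the adjustment and 20 were lower at p under 0.05 before it, against 803 of the 16802 genes. Across arrays the list median was -1.02, -1.05, -0.47 and -1.66 in FGFR1 KO 1 to 4, against 0.11, -0.45, 0.26 and -0.02 in WT 1 to 4, so that the FGFR1 KO arrays all lay below the WT arrays, narrowly for FGFR1 KO 3 and WT 2. In bulk tumour RNA, fewer cells of a type and less RNA per cell cannot be told apart. Among its genes the collagens Col1a1 and Col3a1 differed by -1.93 ± 0.74 and -1.68 ± 0.60, the proteoglycans Dcn and Lum by -2.22 ± 0.78 and -2.19 ± 0.44, and the fibroblast receptor Pdgfra by -0.50 ± 0.21 (SE; limma adjusted p = 0.496 for Dcn, 0.214 for Lum).

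**Figure D3:**
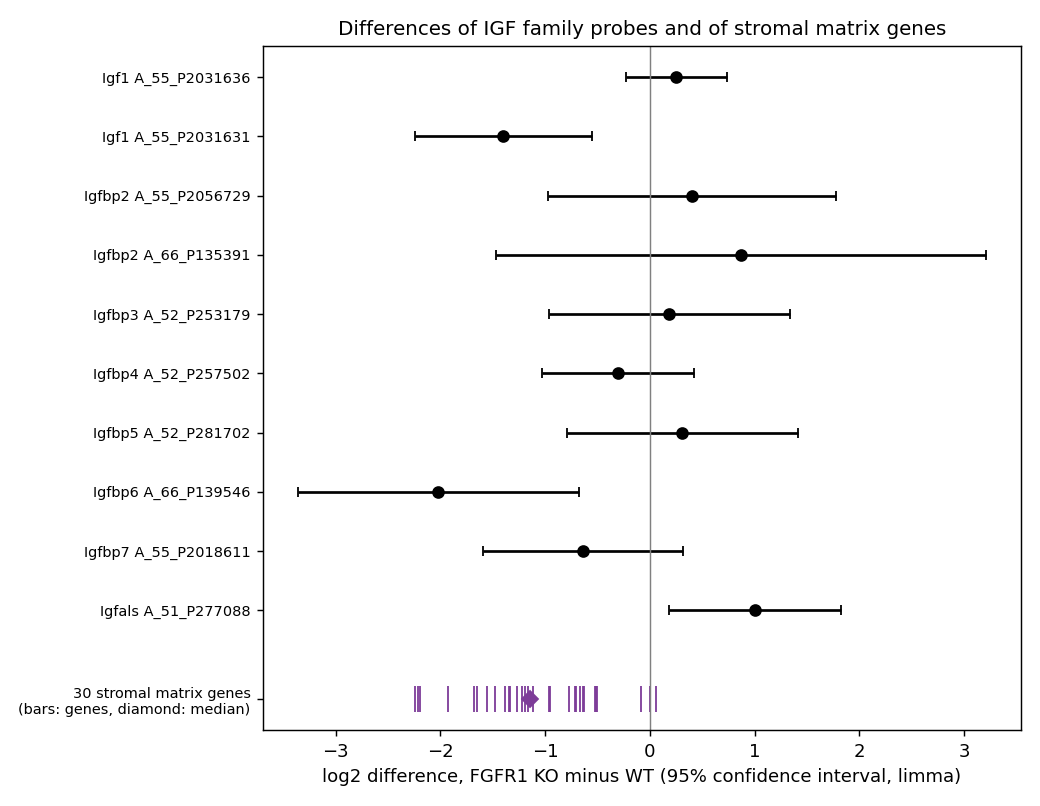
Log2 differences, FGFR1 KO minus WT, with 95% confidence intervals from limma for the 10 tested IGF probes, and below them the differences of the 30 stromal matrix genes (bars) with their median (diamond). Igf1 A_55_P2031631 and Igfbp6 lie on the side of the stromal median of -1.14, Igfals lies opposite at 1.00, and the other intervals span 0.

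Set against the stromal median, most of the IGF probes stood higher, but so did much of the array. With each array's stromal median taken away, 6 of 10 member probes passed (60%), against 70.1% of all probes, so the members' share did not exceed the background. Taking the median away raises the difference of every probe by the same stromal shift, so passing is not particular to the members. Those 6 were Igf1 A_55_P2031636 (1.28), both Igfbp2 probes (1.43 and 1.89), Igfbp3 (1.21), Igfbp5 (1.33) and Igfals (2.03 ± 0.40, limma adjusted p = 0.0058). By exact permutation, p was 0.0286 for Igf1 A_55_P2031636, Igfbp5 and Igfals. It was 0.114 for Igfbp2 A_55_P2056729 and for Igfbp3, and 0.2 for Igfbp2 A_66_P135391. The 4 that did not pass were Igf1 A_55_P2031631 (-0.38), Igfbp6 (-0.996, limma adjusted p = 0.0648), Igfbp7 (0.39) and Igfbp4 (0.72), and a missed threshold does not show that they follow the stroma. The count was 3 without FGFR1 KO 1 and 2 without WT 1, where 20.5% and 3.19% of all probes passed, and it was 2 without both WT 1 and WT 2, where 71.7% of all probes passed. With the stromal median as a covariate in limma, 0 of 10 passed, against 0% of all probes, and 2 of 10 had an unadjusted p under 0.05, against 6.79% of all probes. Those were Igfals at 1.69 ± 0.61 and Igfbp5 at 1.72 ± 0.67 (SE; limma adjusted p = 0.704 for both). Igfbp2 A_66_P135391 then differed by 3.55 ± 1.54 (limma adjusted p = 0.704), Igf1 A_55_P2031631 by -0.72 ± 0.63 and Igfbp6 by -1.88 ± 1.1.

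Across the 8 arrays, with genotypes pooled, Igf1 A_55_P2031631 had the highest r with the stromal median. Both lay lower on every FGFR1 KO array, so r across all arrays includes the genotype gap, and the permutations ignored genotype. For this Igf1 probe Pearson r was 0.81 and Spearman rho 0.88 (exact permutation p = 0.0146 and 0.00724). Without FGFR1 KO 4 and WT 3, the arrays farthest from the middle, r was 0.75, and within genotypes it was 0.45. Igfbp7 had r of 0.71 and rho of 0.74 (exact permutation p = 0.0499 and 0.0458), with r of 0.49 without those arrays and 0.64 within genotypes. Igfbp6 had r of 0.65 and rho of 0.81 (exact permutation p = 0.0803 and 0.0218), with r of 0.51 without those arrays and 0.06 within genotypes. WT 2, the highest array for Igfbp6, had the lowest stromal median of the WT arrays, and without it r was 0.87 over the other 7 (exact permutation p = 0.00853, 0.0853 adjusted over the 10 stromal relations).

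For the other members r across all arrays was lower or below 0. Igfbp4 had r of 0.56, which was 0.02 without FGFR1 KO 4 and WT 3, Igfals had -0.39 and Igf1 A_55_P2031636 had -0.33, while both Igfbp2 probes, Igfbp3 and Igfbp5 lay between -0.06 and 0.21. Within genotypes the values differed from these, at 0.69 for Igfbp5, 0.61 and 0.39 for the Igfbp2 probes A_66_P135391 and A_55_P2056729, 0.54 for Igfbp4, 0.46 for Igfals, 0.07 for Igfbp3 and 0.03 for Igf1 A_55_P2031636. Igfbp5 thus had the highest r within genotypes of the 10 probes, and a low one across them. The 30 stromal genes had a median r of 0.82 with the list median they form, and 16489 genes had a median of 0.00. Of those genes, 3.07% had a higher r than Igfbp7 and 4.83% a higher r than Igfbp6. In all, 40 relations were computed, the 10 probes with 4 marker lists, and p-values were adjusted over the 40. Of the 10 with the stroma, 0 passed, the lowest adjusted exact permutation p being 0.137 for r, at Igf1 A_55_P2031631.

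**Figure D4:**
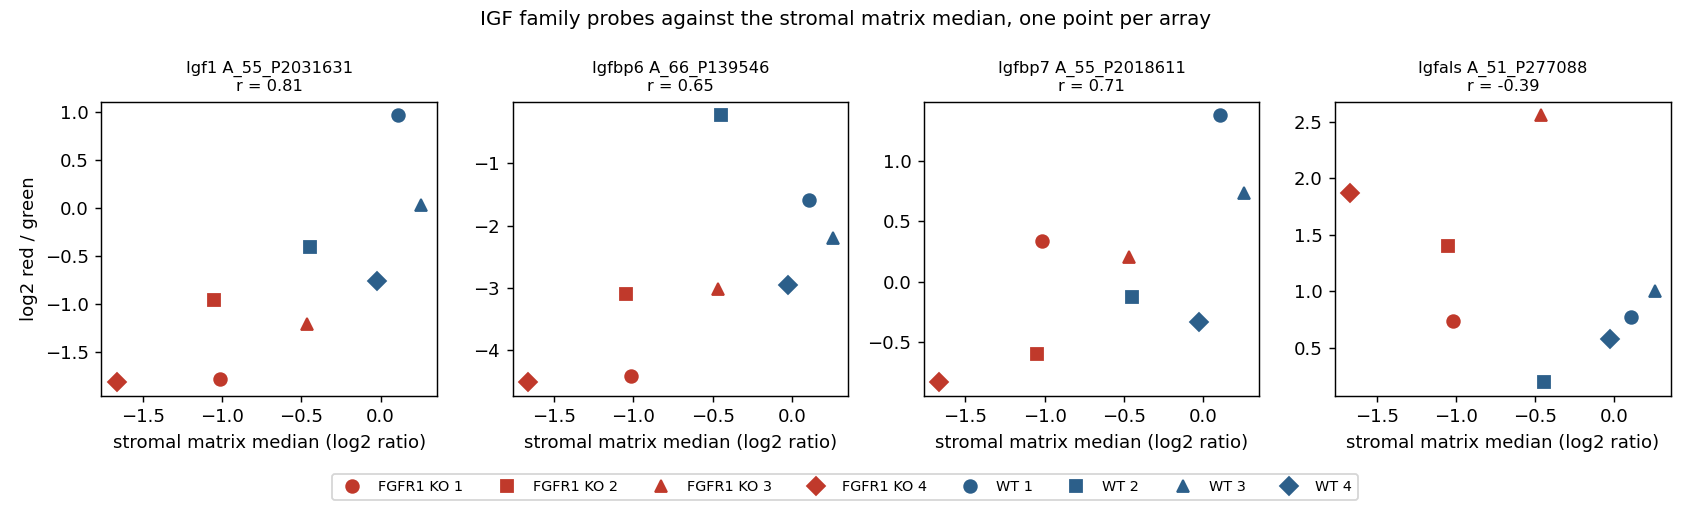
Log2 of red over green at 4 IGF probes (vertical axis) against the median of the stromal matrix list (horizontal axis, log2 ratio), with a point for each array. Igf1 A_55_P2031631 (r = 0.81) climbs with the stromal median, Igfbp7 (0.71) and Igfbp6 (0.65) do so with WT 2 lying high for Igfbp6, and Igfals (-0.39) does not.

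Igfbp6 also moved with the fat and muscle lists and against the luminal list. The medians of these lists on WT 1 and WT 2 stood apart from the other arrays. The adipocyte median was 0.33, 0.25, 0.28 and 0.07 in FGFR1 KO 1 to 4, against 2.65, 3.97, 0.43 and 0.41 in WT 1 to 4. In FGFR1 KO 14 of 14 adipocyte genes lay below 0, against 50.4% of 16802 genes. After adjustment 0 of them passed, and before it 5 were lower at p under 0.05, against 803 of the 16802 genes. The skeletal muscle median ran from -0.33 to 0.56 in FGFR1 KO, against 1.76, 8.57, -0.01 and 0.08 in WT 1 to 4. The mammary luminal median was 3.16, 2.49, 2.53 and 2.44 in FGFR1 KO 1 to 4, against 1.502, -0.20, 2.27 and 2.87 in WT 1 to 4. Of the 30 relations with these lists, 3 passed the adjustment over 40 by r and 0 by rho. All 3 were those of Igfbp6 (adjusted exact permutation p = 0.0394 for each). Over all 8 arrays its r was 0.86 with fat, 0.81 with muscle and -0.87 with luminal markers. With fat, Igfbp6 had rho of 0.93 over all 8 arrays and r of 0.78 within genotypes. Since WT 1 and WT 2 stand apart on the lists, r of Igfbp6 is given on the other 6 arrays. There it was 0.69 with fat, 0.51 with muscle and -0.49 with luminal markers. The part of fat and muscle in the Igfbp6 difference was not tested beyond leaving out those arrays. On the same 6 arrays the highest r of other members was 0.93, for Igfbp5 with muscle. Next were 0.88 and 0.80 for the Igfbp2 probes with luminal markers, and 0.79 for Igfbp4 with fat. Over all 8 arrays r of Igfbp5 with muscle had the opposite sign, at -0.49. The others were then 0.68 and 0.79 for the Igfbp2 probes and 0.19 for Igfbp4, and none of these relations passed. Igf1 A_55_P2031631 had r of 0.59 and rho of 0.83 with fat over all 8 arrays, and r of 0.71 on these 6.

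Across all genes, those most like the members over 8 arrays were found by Pearson r among 16518 genes. For Igf1 at its brightest probe they were Engase (0.98), a glycosidase, and the RNA helicases Ddx39a (0.98) and Ddx54 (0.98). For Igfbp6 they were Fibin (0.99), Sct, which encodes secretin (0.98), and Celf2, an RNA-binding protein (0.98). For Igfals they were Polr3a, a subunit of RNA polymerase III (0.97), Anks3 (0.96) and the oxidase Duox1 (0.96). These are the highest of a large number of values over few arrays and carry no test.

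Around the ligands, the receptors and adaptors went both ways. Of 11 listed, 10 were tested, 5 below and 5 above 0 with a median of -0.01, and 0 passed. Before adjustment 2 of the 10 were lower at p under 0.05, against 803 of 16802 genes. Igf1r, the receptor for both ligands, had -1.77, -1.76, -1.60 and -2.03 in FGFR1 KO 1 to 4, against -1.40, -1.12, -1.39 and -1.60 in WT 1 to 4. The FGFR1 KO arrays all lay below the WT arrays, as at 2.71% of all probes, FGFR1 KO 3 and WT 4 being almost equal. The difference was -0.41 ± 0.16 (SE; limma adjusted p = 0.539). Red was above background for Igf1r on 3 FGFR1 KO arrays and 1 WT array. Ghr, the growth hormone receptor upstream of Igf1, had -0.86, -0.85, -0.64 and -0.90 in FGFR1 KO 1 to 4, against 0.63, 1.29, -0.45 and -0.77 in WT 1 to 4. WT 1 and WT 2, the arrays high in fat markers, were the high ones for Ghr, while WT 4 lay among the FGFR1 KO arrays, and its difference was -0.99 ± 0.41. The adaptor Shc1 differed by 0.61 ± 0.46 and Igf2r, which clears IGF2 from the cell surface, by 0.33 ± 0.28.

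Among proteases that cut binding proteins and their regulators, 11 of 12 were tested, 7 below and 4 above 0 with a median of -0.08, and 0 passed. Over 16802 genes 50.4% lay below 0. Before adjustment 2 of the 11 were lower at p under 0.05, against 803 of the 16802 genes. Adamts1, a secreted metalloprotease, had -1.49, -1.83, -1.72 and -3.31 in FGFR1 KO 1 to 4, against -1.20, -0.02, -0.17 and -0.64 in WT 1 to 4. The FGFR1 KO arrays all lay below the WT arrays, as at 2.71% of all probes, FGFR1 KO 4 being lowest. The difference was -1.58 ± 0.42 (SE; limma adjusted p = 0.395). Htra3, a secreted serine protease with an IGFBP domain, had -0.48, 0.06, 0.48 and 0.11 in FGFR1 KO 1 to 4, against 2.17, 1.84, 0.95 and 0.46 in WT 1 to 4. WT 4 lay just under FGFR1 KO 3, and the difference was -1.31 ± 0.38. The related Htra1 differed by -1.0 ± 0.56, and Stc1, an inhibitor of PAPPA, by 0.34 ± 0.18. Adamts1 and Htra3 each have a spot in the bright rectangle.

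Other proteins with an IGFBP domain had 7 of 9 tested genes below 0, against 50.4% of 16802 genes, with a median of -0.11, and 0 passed. Before adjustment 2 of the 9, Ccn1 and Htra3, were lower at p under 0.05, against 803 of the 16802 genes. Htra3 and Htra1 belong to the protease list too, so the counts of these lists are not separate. The matrix protein Ccn1 had -3.21, -3.02, -2.67 and -3.54 in FGFR1 KO 1 to 4, against -2.03, -2.81, -1.51 and -2.02 in WT 1 to 4. FGFR1 KO 3 lay above WT 2 and the other arrays kept apart, with a difference of -1.02 ± 0.29 (SE; limma adjusted p = 0.432), and its spot too lies in the bright rectangle. Esm1, an endothelial proteoglycan, differed by 0.43 ± 0.40. Of the IGF2 mRNA-binding proteins, 1 of 3 was tested, Igf2bp2, at 0.09 ± 0.17.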

How the data were processed

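Mouse mammary tumour RNA was read on 8 2-colour Agilent arrays on 1 slide, 4 labelled FGFR1 KO and 4 labelled WT. Per the file headers, Agilent Feature Extraction 11.0.1.1 gave median spot and background intensities on a linear scale, processed intensities, and the log10 of red over green; probes were designed on mm9. The values of the authors' deposited series matrix were taken as log2 ratios of red over green. They had r of 0.985 to 0.991 with those used here, which cannot show the log base. The stromal median difference was -1.20 from the matrix and -1.14 here, so the scales were close. How the matrix values were normalized and centred is not stated, and the column medians ran from -0.0152 to 0.0155.

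On the dyes the labels conflict: the dye field has cy3 alone, but per the labels' protocols tumour RNA took the red Alexa dye and human reference RNA the green one. Red was taken as the tumour; green varied less within groups (median SD 0.219 and 0.236, against 0.533 and 0.399 in red, FGFR1 KO and WT).

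Median intensities were corrected by normexp (offset 50) and normalized by loess within arrays in limma 3.58.1 (R 4.3.3), with control and outlier spots at weight 0 and then removed. Spots of a probe were averaged. A probe was tested if red was well above background on at least 4 of 8 arrays with at least 3 values per group. Differences are FGFR1 KO minus WT from lmFit and eBayes, adjusted by Benjamini-Hochberg, threshold 0.05. A gene is represented by its brightest tested probe. Exact permutation tests were two-sided and went through every arrangement of the arrays, in R for differences and in Python 3.11.15 for correlations. Ranks and Benjamini-Hochberg adjustment of the correlations came from scipy 1.17.1. The fit was tested on simulated data. Of the probes, 28325 had a gene name. All 10 members are named at every probe; from each pathway list, up to 4 genes of smallest p; from the stromal list, Col1a1, Col3a1, Dcn, Lum and Pdgfra; and 3 genes most like Igf1, Igfbp6 and Igfals (Igf2 was not measured). Members and lists were chosen with earlier results of these data known. Within-genotype r uses deviations from each genotype's mean. Alternatives changed the source of values, normalization, filter, variance model, arrays used, pairing and stromal adjustment.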

Additional observations from a re-analysis of the deposited data

Results flagged for a closer look

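Among 46 groups of 4 arrays examined, 1 array lay far from the other 3 of its group, where chance gives about 1 group in 20. The mammary luminal marker median of FGFR1 KO 1 was 3.16, where the other FGFR1 KO arrays had 2.44 to 2.53. The same array had the highest Igfbp2 and Igfbp3 values of the 8.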

How the results depend on the processing

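The count of member probes past the threshold was 0 under every alternative, with or without each array, apart from 6 when the stromal median was subtracted, where 27955 of all probes also passed. Over all probes, the count of 4 became 0 with Agilent's log ratio, median centring, red alone, the filter on all 8 arrays, a trended and robust variance, the bright rectangle left out, both WT 1 and WT 2 left out, the replicate block or the stromal covariate, 11 with array weights, 139 with no filter on dim probes, and 0 to 1 with each array left out. With the authors' series matrix it was 6. The count of member probes differing from the stromal median, 6, was 3 with Agilent's log ratio, 1 with red alone, 2 without both WT 1 and WT 2 (20.4%, 4.09% and 71.7% of all probes), and 2 to 7 with each array left out (3.19% to 86.3%). The stromal median difference ran from -1.29 to -0.87 with each array left out.

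Signs turned at probes whose intervals span 0. Igfbp3 became -0.25 with array weights, -0.37 without both WT 1 and WT 2, -0.25 without FGFR1 KO 1 and -0.14 without WT 2, and its correlation with the stroma became 0.10 with Agilent's ratio. Igfbp2 became -0.24 and -0.28 at its probes without both WT 1 and WT 2, and -0.15 at A_55_P2056729 without FGFR1 KO 1. Igfbp5 became -0.22 without both WT 1 and WT 2 and -0.028 without FGFR1 KO 2. With each array left out, Igfbp2 A_55_P2056729 ran from -0.15 to 0.76, A_66_P135391 from 0.05 to 1.61, Igfbp3 from -0.25 to 0.43, Igfbp5 from -0.028 to 0.64 and Igf1 A_55_P2031636 from 0.09 to 0.37. Igfbp4 and Igfbp7 became 0.39 and 0.48 with the stromal covariate and 0.72 and 0.39 with it subtracted. Igf1 became -0.57 as the mean of its 2 tested probes. The cause was not tested. Igf1 A_55_P2031631 (-2.09 to -0.38), Igfbp6 (-2.42 to -0.996) and Igfals (0.70 to 2.03) kept their sign under the alternatives that gave a value.

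Same-numbered arrays deviated together little (r of -0.04, 0.01, 0.11 and -0.11 for numbers 1 to 4), which cannot decide whether the numbers pair the samples. Under the replicate block 0 member probes and 0 of all probes passed. Before adjustment 4 of 10 member probes then had limma p under 0.05, against 8.24% of all probes. Among them was Igfbp7, at -0.64 ± 0.17 (SE; limma adjusted p = 0.499). With Agilent's log ratio, and without WT 2, 0 stromal relations passed, there adjusted over the 10 stromal relations. With 4 arrays a group, a brighter background on WT arrays, and genotype following slide row, differences at dim probes are weakly determined.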
